A study of Mus musculus with 2 samples.

Results

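Immune checkpoint and costimulatory genes encode the surface receptors and ligands that set how strongly a T cell responds once its antigen receptor is engaged. The 10 genes described here were chosen by symbol in the deposited table, which holds 18722 loci, and all 10 were found there. They are the inhibitory receptors Pdcd1 (PD-1), Ctla4, Lag3, Havcr2 (TIM-3) and Tigit, the costimulatory receptor Icos, and the ligands Cd274 (PD-L1), Pdcd1lg2 (PD-L2), Cd80 and Cd86. The study sequenced RNA of whole testis from male C57BL/6J mice aged 16 weeks. One library came from testis labelled shDmrt1, for a short hairpin RNA against Dmrt1, whose protein regulates transcription in Sertoli cells and spermatogonia. The other came from testis labelled shControl, for a control hairpin. The labels give the first the genotype Dmrt1 knockdown and the other WT. They do not say how the hairpin was delivered, or how many animals or testes each library holds.

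T cells need a second signal beside antigen. The CD28 family supplies it: CD28 and ICOS stimulate, whereas CTLA-4 competes with CD28 for CD80 and CD86 on antigen-presenting cells. PD-1 is induced on activated T cells and binds PD-L1 and PD-L2, and PD-L1 is itself induced by interferon gamma on many cell types. LAG-3, TIM-3 and TIGIT are further inhibitory receptors of activated T cells, and TIM-3 is also found on macrophages and dendritic cells. The testis is known as an immune-privileged organ in which responses to germ cell antigens are normally held down.

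The knockdown library held 24594371 counts and the control library 17846426. With 1 library per group no replicate exists and no test was made. Higher and lower therefore describe these 2 libraries and not the treatments. A ratio is that of TMM-scaled counts, knockdown over control, with a 95% Clopper-Pearson interval that covers counting error only. A gene is counted as higher or lower where its whole interval lay beyond 2-fold. Dmrt1 itself had 39 counts in the knockdown library, against 852 in the control, a ratio 21.9-fold lower. The labelled tissue was checked against defining markers. All 10 Sertoli cell markers and all 8 Leydig cell markers were detected in both libraries and were lower in the knockdown library, summing to 515 and 257 CPM (counts scaled to library size), against 6392 and 23952 CPM in the control. Germ cell markers were scarce in both, with 9 genes summing to 3.98 CPM in the knockdown and 171 CPM in the control library. All 8 that were measured were lower in the knockdown library, with a median log2 ratio of -4.64. In the control library Prm1, Prm2 and Tnp1 had 43, 91 and 55 counts, and Ldhc had the most of the 9, 1085. The control can therefore not be assumed to stand for a normal adult testis, and why germ cell markers were scarce in it was not tested.

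All 10 genes passed the filter of 1 CPM in at least 1 library, and all 10 were higher in the knockdown library. Of 15104 genes measured, 17.8% were higher by the same rule and 20.8% lower. By a looser rule, at least 1.5-fold with an interval that excludes 1, all 10 were also higher, beside 29.7% of all genes higher and 32.5% lower. In bulk tissue, more or fewer cells of a type and more or less RNA per cell cannot be told apart. The median log2 ratio of the 10 genes was 3.09, against -0.02 over all measured genes. The smallest ratio was 3.02-fold and the largest 51.7-fold, which placed the genes between ranks 202 and 2122 of the 15104. Scaled by library totals in place of TMM, the log2 ratio of all genes fell by a median of 0.44. Then 8 of the 10 were higher, against 12.7% of all genes. The pair that no longer reached the 2-fold bound was Pdcd1, at 2.22-fold, and Pdcd1lg2, at 2.75-fold. In the authors' deposited table the EBSeq comparison calls 8 of the 10 up, beside 10.5% of the 15104 genes measured here, and calls the same pair, Pdcd1 and Pdcd1lg2, normal. Those calls rest on 1 library per group as well.

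Among the ligands, the PD-1 ligand genes Cd274 and Pdcd1lg2 stood at opposite ends. They lie 22.8 kb apart on chromosome 19 (GRCm38, GENCODE M21), Cd274 at 29367455 to 29388095 and Pdcd1lg2 at 29410919 to 29471161, both protein-coding and on the plus strand. An annotated antisense gene overlaps each, and without a stated strand its reads cannot be told from theirs. The 250 bases before the RefSeq start of each (GRCm38.p6, plus strand, 5′ to 3′) are shown because the neighbours differ most in ratio, with Cd80, a ligand of another receptor, beside them. Capitals mark a match to 1 of 4 motifs searched on both strands.
Cd274, chr19:29367188-29367437: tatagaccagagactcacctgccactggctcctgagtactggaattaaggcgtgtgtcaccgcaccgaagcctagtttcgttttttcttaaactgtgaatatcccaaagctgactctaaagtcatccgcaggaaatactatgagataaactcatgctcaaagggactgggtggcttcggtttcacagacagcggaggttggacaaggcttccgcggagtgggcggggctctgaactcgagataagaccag
Pdcd1lg2, chr19:29410669-29410918: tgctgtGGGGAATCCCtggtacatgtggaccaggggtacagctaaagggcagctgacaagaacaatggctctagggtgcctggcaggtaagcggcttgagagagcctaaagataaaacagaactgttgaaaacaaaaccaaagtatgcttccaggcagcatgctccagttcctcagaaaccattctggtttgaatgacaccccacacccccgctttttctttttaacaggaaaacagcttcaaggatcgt
Cd80, chr16:38458683-38458932: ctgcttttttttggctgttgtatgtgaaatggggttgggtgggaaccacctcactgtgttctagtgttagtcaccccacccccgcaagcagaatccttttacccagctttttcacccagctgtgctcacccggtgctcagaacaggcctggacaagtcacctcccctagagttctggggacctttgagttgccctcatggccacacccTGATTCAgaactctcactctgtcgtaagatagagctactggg

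RefSeq promoter entries existed for 7 of the 10 genes and were used as given, without Lag3, Cd86 and Icos. The NF-kB consensus was matched in the Pdcd1lg2 window, starting 244 bases before the start, and in 3.90% of all 32851 windows. The AP-1 letters TGANTCA were matched in the Cd80 window, 42 bases before the start, and in that of Havcr2, and in 6.75% of all windows. The gamma-activated site TTCNNNGAA, in 7.02% of all windows, was matched in none of the 7. The paired GAAA core of interferon-stimulated response elements, in 2.98% of all windows, was matched in none of them either. The motifs do not share letters within these windows, and a match is a description of letters, not of binding.

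Cd274, the PD-L1 gene, had 13132 counts in the knockdown library, against 250 in the control. Per length its level was 195 FPKM (a level scaled to gene length and library size) in the knockdown library, against 3.84 FPKM in the control. Its ratio was 51.7-fold (interval 45.7 to 58.9), rank 202 among 15104 genes. In the knockdown library 96.0% of measured genes had a lower FPKM than Cd274, against 32.1% in the control. The gene made up 52.1% of the summed FPKM of the 10 genes in the knockdown library and 14.0% in the control.

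Pdcd1lg2, the gene of the second PD-1 ligand, was the scarcest of the 10 in both libraries. It had 111 counts and 1.94 FPKM in the knockdown library, against 29 counts and 0.47 FPKM in the control. The ratio was 3.73-fold (2.49 to 5.89). Within a library, where the scaling cancels out, Cd274 had 118 counts for each Pdcd1lg2 count in the knockdown library, against 8.62 in the control. The first ratio was 13.7 times the second (8.62 to 21.3), so the 2 PD-1 ligand transcripts differed in ratio well beyond counting error.

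Cd86 was more abundant than Cd80 in both libraries. It had 1668 counts and 32.8 FPKM in the knockdown library, against 219 counts and 5.57 FPKM in the control. It was 7.50-fold higher (6.52 to 8.69). Cd80 had 348 counts and 8.12 FPKM in the knockdown library, against 64 counts and 1.39 FPKM in the control, and was 5.33-fold higher (4.10 to 7.11). CD80 and CD86 bind the same receptors, CD28 and CTLA-4. By counts, the Cd80 to Cd86 ratio was 0.209 in the knockdown library, against 0.292 in the control, a quotient of 0.71 (0.52 to 0.98). By the deposited FPKM values it was 0.2476 in the knockdown library, against 0.2498 in the control, so this difference depended on the measure.

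**Figure D1:**
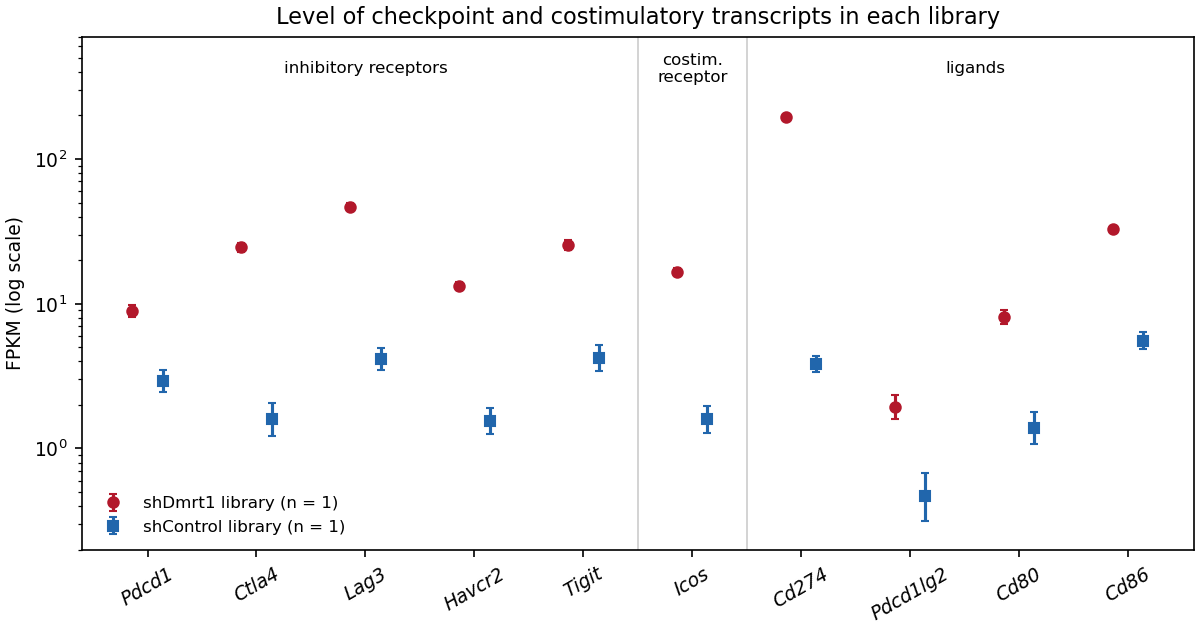
FPKM of the 10 genes (log axis) in the knockdown library (shDmrt1, circles, left of each pair) and the control library (shControl, squares), 1 library each, with bars for the 95% Poisson counting interval. Every knockdown value lies above its control value, and Cd274 reaches 195 FPKM, against 3.84 FPKM in the control.

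Of the inhibitory receptors, Ctla4 showed the largest ratio. This receptor takes CD80 and CD86 away from CD28. It had 853 counts and 24.6 FPKM in the knockdown library, against 59 counts and 1.60 FPKM in the control, 14.1-fold higher (10.9 to 18.9). Lag3, whose protein binds MHC class II, had 1332 counts and 47.0 FPKM in the knockdown library, against 121 counts and 4.17 FPKM in the control. Its ratio was 10.8-fold (9.01 to 13.2).

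Havcr2, the TIM-3 gene, had 930 counts and 13.2 FPKM in the knockdown library, against 94 counts and 1.56 FPKM in the control, 9.71-fold higher (7.88 to 12.2). Tigit, a receptor for the poliovirus receptor family on other cells, had 609 counts and 25.3 FPKM in the knockdown library, against 92 counts and 4.24 FPKM in the control. It was 6.50-fold higher (5.23 to 8.22).

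Pdcd1, which encodes PD-1, had the smallest ratio of all 10. It had 414 counts and 8.88 FPKM in the knockdown library, against 135 counts and 2.94 FPKM in the control. It was 3.02-fold higher (2.48 to 3.70), and this interval did not overlap that of any other receptor of the group. PD-1 thus stood far below its ligand gene Cd274 in ratio, 3.02-fold against 51.7-fold.

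Icos, the inducible costimulator, resembled the inhibitory receptors Lag3 and Havcr2 in size of ratio. It had 969 counts and 16.7 FPKM in the knockdown library, against 93 counts and 1.60 FPKM in the control, 10.2-fold higher (8.30 to 12.9). Icos and Ctla4 are neighbours on chromosome 1, 62.1 kb apart, and CD28, the constitutive costimulatory receptor of T cells, is encoded 113.6 kb from Ctla4 on its other side. Cd28 had 601 counts in the knockdown library, against 170 in the control, 3.48-fold higher. Both Ctla4 and Icos were therefore higher relative to Cd28. Ctla4 had 1.42 counts per Cd28 count in the knockdown library and 0.347 in the control, a quotient of 4.09 (2.96 to 5.70). For Icos the values were 1.61 in the knockdown library and 0.547 in the control, a quotient of 2.95 (2.23 to 3.91). Cd28 itself had a smaller ratio than the summed T cell markers Cd3d, Cd3e and Cd3g, which were 9.70-fold higher. Against these markers the quotient was 1.06 (0.83 to 1.35) for Icos and 1.47 (1.10 to 1.98) for Ctla4, as given below.

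The order of the levels changed between the libraries. By FPKM, Cd274 led in the knockdown library, followed by Lag3, Cd86, Tigit, Ctla4, Icos, Havcr2, Pdcd1, Cd80 and Pdcd1lg2. Of the 9 neighbouring pairs in that order, Tigit and Ctla4, and Pdcd1 and Cd80, had overlapping counting intervals. In the control library Cd86 led, followed by Tigit, Lag3, Cd274, Pdcd1, Ctla4, Icos, Havcr2, Cd80 and Pdcd1lg2. There 7 of the 9 neighbouring pairs overlapped, and the gaps lay between Pdcd1 and Ctla4 and between Cd80 and Pdcd1lg2. The spread of the 10 genes, from the scarcest to the most abundant, was 100.2-fold in the knockdown library and 11.8-fold in the control.

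**Figure D2:**
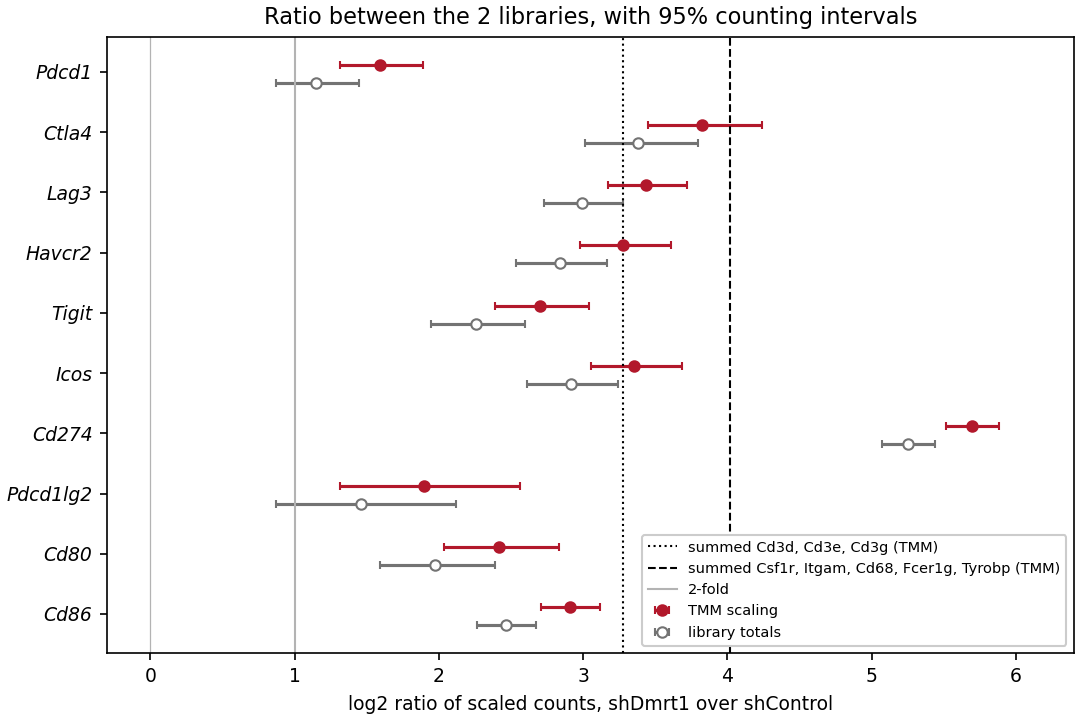
Log2 ratio of each gene, knockdown (shDmrt1) over control (shControl), with 95% counting intervals, after TMM scaling (filled) and by library totals (open). Vertical lines mark the summed Cd3 chains (9.70-fold), the 5 summed myeloid markers (16.2-fold) and 2-fold. With library totals the intervals of Pdcd1 and Pdcd1lg2 reach below 2-fold.

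Markers of T cells, NK cells and neutrophils were mostly higher in the knockdown library, whereas those of macrophages, dendritic cells and B cells were mixed. Beside these counts, 17.8% of all measured genes were higher and 20.8% lower. Of 12 T cell markers analysed, all 12 were higher, with a summed level of 594 CPM in the knockdown library and 94.4 CPM in the control. All 3 markers of regulatory T cells were higher, summing to 44.0 CPM in the knockdown and 16.0 CPM in the control library. Their defining factor Foxp3 had 277 counts in the knockdown library and 37 in the control. For NK cells, 5 of 6 markers were higher, with sums of 84.5 CPM in the knockdown and 11.5 CPM in the control library. The 13 markers of macrophages and monocytes split into 10 higher, 2 lower and 1 neither, with sums of 4853 CPM in the knockdown and 924 CPM in the control library. The lower ones, named after their values were seen, were Mrc1 and Cd163, which mark resident macrophages. Dendritic cell markers went both ways, 5 of 9 higher, 1 lower and 3 neither, with sums of 156 CPM in the knockdown and 79.7 CPM in the control library. For B cells 2 of 6 were higher and 4 neither, with sums of 148 CPM in the knockdown and 76.7 CPM in the control library. Neutrophil markers were higher for all 8, with sums of 724 CPM in the knockdown and 1.40 CPM in the control library, where S100a8, Retnlg and Mmp8 were at 0 counts. No marker of the other immune lists was at 0. The part of these cells in the ratios above was not tested.

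Counts of each receptor were set against Cd3d, Cd3e and Cd3g of the same library, which encode CD3 chains of the T cell receptor complex. These summed to 4292 counts in the knockdown and 436 in the control library. Lag3 had 31.0 counts per 100 Cd3 counts in the knockdown library and 27.8 in the control, a quotient of 1.12 (0.90 to 1.39). Icos had 22.6 in the knockdown and 21.3 in the control library, a quotient of 1.06 (0.83 to 1.35). Havcr2 had 21.7 in the knockdown and 21.6 in the control library, a quotient of 1.01 (0.79 to 1.28). For these 3 receptors the quotients did not differ from 1 beyond counting error. With other T cell markers that changed for Lag3, whose quotient was 1.34 (1.03 to 1.75) against Cd3e alone and 1.27 (1.05 to 1.55) against all 12 markers. The Icos quotient was 1.27 (0.95 to 1.70) against Cd3e alone and 1.20 (0.96 to 1.51) against all 12, and that of Havcr2 was 1.20 (0.90 to 1.61) and 1.14 (0.92 to 1.43), so that these intervals still held 1.

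Ctla4 had 19.9 counts per 100 Cd3 counts in the knockdown library and 13.5 in the control, a quotient of 1.47 (1.10 to 1.98). Tigit had 14.2 in the knockdown and 21.1 in the control library, a quotient of 0.67 (0.53 to 0.87). Pdcd1 had 9.65 in the knockdown and 31.0 in the control library, a quotient of 0.31 (0.25 to 0.39). Relative to the Cd3 chains, then, Ctla4 was higher in the knockdown library, whereas Tigit and Pdcd1 were lower. With Cd3e alone the quotients were 1.76 (1.27 to 2.47) for Ctla4, 0.81 (0.60 to 1.08) for Tigit and 0.37 (0.28 to 0.49) for Pdcd1. The difference of Tigit was therefore within counting error with Cd3e alone. Against all 12 T cell markers the quotients were 1.67 (1.27 to 2.22) for Ctla4, 0.76 (0.61 to 0.97) for Tigit and 0.35 (0.29 to 0.44) for Pdcd1.

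The ligands, and Havcr2 again as a receptor also found on macrophages, were set against the summed counts of the myeloid markers Csf1r, Itgam, Cd68, Fcer1g and Tyrobp, 87458 in the knockdown and 5311 in the control library. Fcer1g (34.0-fold), Cd68 (32.4-fold), Itgam (22.8-fold) and Tyrobp (16.3-fold) had the largest ratios of the 13 macrophage and monocyte markers. Csf1r was 7.97-fold higher. Markers left out of this sum ranged from Ly6c2, 13.5-fold higher, to Cd163, 21.6-fold lower. Quotients against this sum are therefore smaller than against the whole list. Cd274 had 15.02 counts per 100 marker counts in the knockdown library and 4.71 in the control, a quotient of 3.19 (2.81 to 3.64). Against Csf1r alone it was 6.50, against all 13 macrophage and monocyte markers 7.25, and by FPKM 2.37. Cd274 was thus higher in the knockdown library relative to each of these macrophage and monocyte marker sets. Neutrophil markers were not used as a denominator. Their smallest log2 ratio was 5.82, against 5.69 for Cd274, so this result does not extend to them.

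Cd80 and Pdcd1lg2 were lower relative to the same markers. Cd80 had 0.398 counts per 100 in the knockdown library and 1.21 in the control, a quotient of 0.33 (0.25 to 0.44). Against all 13 markers it was 0.75, with an interval of 0.574 to 0.997 that only just excluded 1. Pdcd1lg2 had 0.127 in the knockdown and 0.546 in the control library, a quotient of 0.23 (0.15 to 0.36), or 0.53 (0.35 to 0.83) against all 13 markers. Cd86 had 1.91 in the knockdown and 4.12 in the control library, a quotient of 0.46 (0.40 to 0.54). Havcr2 had 1.06 in the knockdown and 1.77 in the control library, a quotient of 0.60 (0.48 to 0.75). The last pair depended on the marker set. Against all 13 markers, which include Mrc1, Cd163 and C1qa, the Cd86 quotient was 1.05 (0.91 to 1.22), not different from 1 beyond counting error. That of Havcr2 turned in direction, to 1.37 (1.10 to 1.71).

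**Figure D3:**
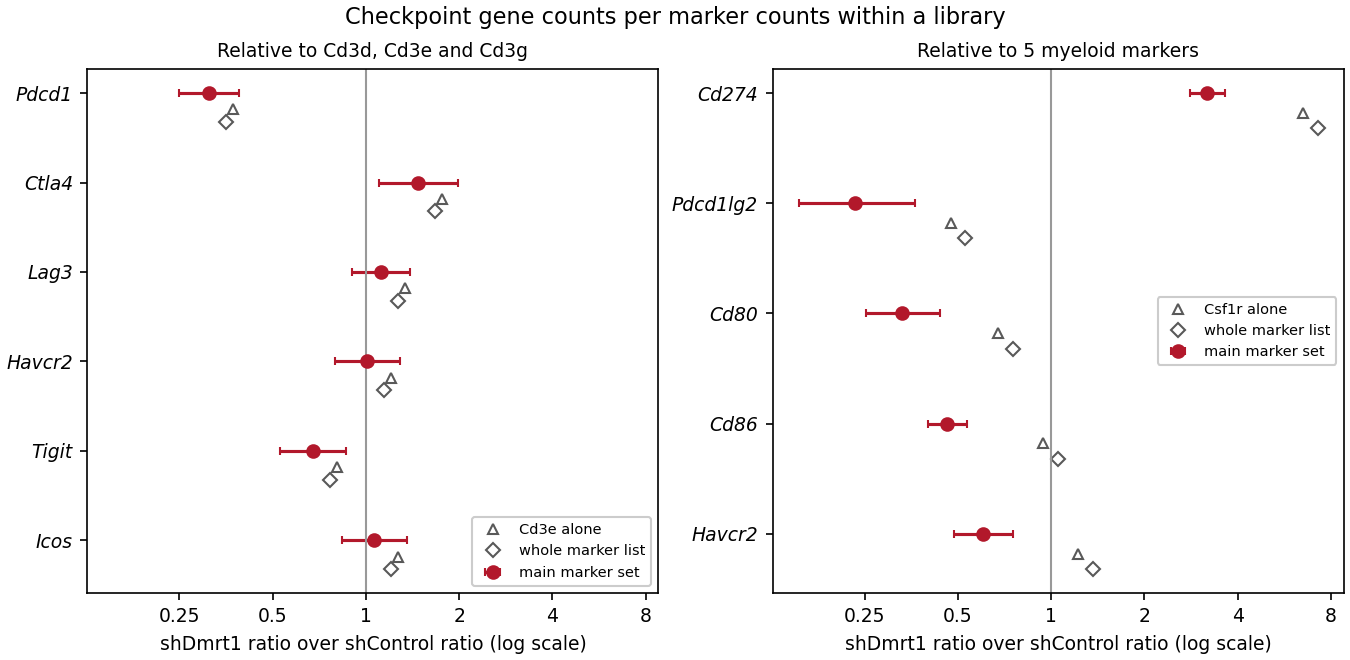
Quotient of 2 within-library ratios (knockdown over control, log axis) for receptors against Cd3d, Cd3e and Cd3g (left) and for ligands and Havcr2 against 5 myeloid markers (right). Circles carry 95% exact conditional intervals of counting error, triangles use Cd3e or Csf1r alone and diamonds the whole marker list. Cd274 lies above 1 and Pdcd1 below 1 for each marker set shown, while Cd86 and Havcr2 cross 1 on the right.

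Other genes of the same pathways came from 9 lists with 87 genes, of which 82 were measured. The knockdown library was higher for 61 of these, lower for 5 and neither for 16, and the median log2 ratio was 2.47. Over all measured genes 17.8% were higher and 20.8% lower, which is the background for this count and for each list below. The remaining B7 and CD28 family went both ways. It had 2 of 6 measured genes higher, 1 lower and 3 neither. Its median log2 ratio was 0.99. Vsir, which encodes the inhibitory receptor VISTA, was 5.24-fold higher and Cd28 3.48-fold higher. Vsig4, an inhibitory receptor of resident macrophages, had 22 counts in the knockdown library and 79 in the control, 3.58-fold lower. Btla, an inhibitory receptor gene, had a ratio of 2.41-fold, with an interval of 0.93 to 1.62 on the log2 scale that reached below 2-fold, and counts as neither. Icosl, the ICOS ligand gene, and Cd276, both named after their values were seen, had log2 ratios of 0.25 and 0.72. The Icos receptor gene and its ligand gene thus differed in ratio, at 10.2-fold and 1.19-fold.

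Of 12 other inhibitory receptors, 11 were higher and 1, Siglech, was neither, with a median log2 ratio of 2.91. Cd200r1, the receptor for CD200 on myeloid cells, was 20.3-fold higher, and Sirpa, which binds the signal CD47, was 17.0-fold higher, with 35187 counts in the knockdown and 2037 in the control library. Cd5 was 9.10-fold higher and the collagen receptor gene Lair1 7.30-fold higher.

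Binding partners of the inhibitory receptors went both ways. The list had 6 of 12 genes higher, 3 lower and 3 neither. Its median log2 ratio was 1.05. Lgals3, a galectin reported to bind LAG-3, was 41.1-fold higher, Tnfrsf14, the partner of BTLA, 26.0-fold, Ceacam1 8.81-fold and Cd48 7.71-fold. The 3 lower genes, named after their values were seen, were Nectin2, 3.24-fold lower, Nectin3, 2.54-fold lower, and Fgl1. Fgl1 is another LAG-3 ligand gene and had 2 counts in the knockdown library and 18 in the control. Pvr, the poliovirus receptor gene, had 449 counts in the knockdown and 904 in the control library, a log2 ratio of -1.03 with an interval of -1.20 to -0.87. The partner genes of Tigit, Pvr and Nectin2, therefore had negative log2 ratios, whereas Tigit had one of 2.70. Cd226, the activating receptor that shares these partners with TIGIT, was 5.59-fold higher, and the adhesion receptor gene Cd2 7.42-fold higher.

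Costimulation through the TNF family was higher for 9 of 10 measured genes, and Tnfsf8 was neither. Their median log2 ratio was 2.86. Tnfsf9, the ligand gene of 4-1BB, had 179 counts in the knockdown library and 8 in the control, 20.8-fold higher. Its receptor gene Tnfrsf9 was 8.79-fold higher, Cd40, the helper signal receptor of antigen-presenting cells, 10.6-fold, and Tnfrsf4, the OX40 gene, 8.24-fold. Tnfsf4, Tnfsf18 and Cd70 did not reach 1 CPM in either library.

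Of 13 signalling genes below these receptors, 11 were higher while Ptpn11 and Fyn were neither. The median log2 ratio was 2.65. SHP-1 and SHP-2 are the phosphatases that inhibitory receptors can recruit. Ptpn6, the SHP-1 gene, was 13.2-fold higher. Ptpn11, the SHP-2 gene through which PD-1 mainly signals, had 2638 counts in the knockdown and 2954 in the control library, a log2 ratio of -0.18 (-0.26 to -0.11). Vav1 was 11.8-fold higher, the T cell adaptor gene Lat 10.2-fold and Lcp2 9.39-fold.

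Interferon gamma and its pathway are known inducers of PD-L1. This axis had 8 of 11 genes higher and 3 neither. Its median log2 ratio was 2.46. Ifng had 338 counts in the knockdown library and 13 in the control, 24.7-fold higher. The response genes Cxcl9, Irf1 and Cxcl10 were 15.3-fold, 10.7-fold and 7.88-fold higher. Those that were neither were Jak1, Ifngr2 and Cmtm6, the last encoding a protein that keeps PD-L1 at the cell surface, at a log2 ratio of -0.16.

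Among other suppressive factors, 6 of 7 measured genes were higher. The other was lower, and the median log2 ratio was 2.12. The adenosine receptor gene Adora2a was 30.3-fold higher, the arginase gene Arg1 16.4-fold and Tgfb1 4.34-fold. Nt5e, whose enzyme CD73 makes adenosine, had 451 counts in the knockdown and 2630 in the control library, 5.91-fold lower. Ido1 had 11 counts in the knockdown and 5 in the control library and was not measured.

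A list of transcription factors linked to T cell activation and exhaustion had 6 of 9 genes higher and 3 neither, with a median log2 ratio of 2.26. In bulk tissue the cells that expressed these genes are not known, so the count does not describe T cells alone. Id2 was 9.88-fold higher, Tbx21, the T-bet gene, 8.01-fold, Batf 6.19-fold and Nfatc1 4.78-fold. Tox, a factor of T cell exhaustion, had 178 counts in the knockdown and 305 in the control library, a log2 ratio of -0.80 (-1.07 to -0.53). Tcf7 had a log2 ratio of 0.61 and Nr4a1 one of -1.07.

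**Figure D4:**
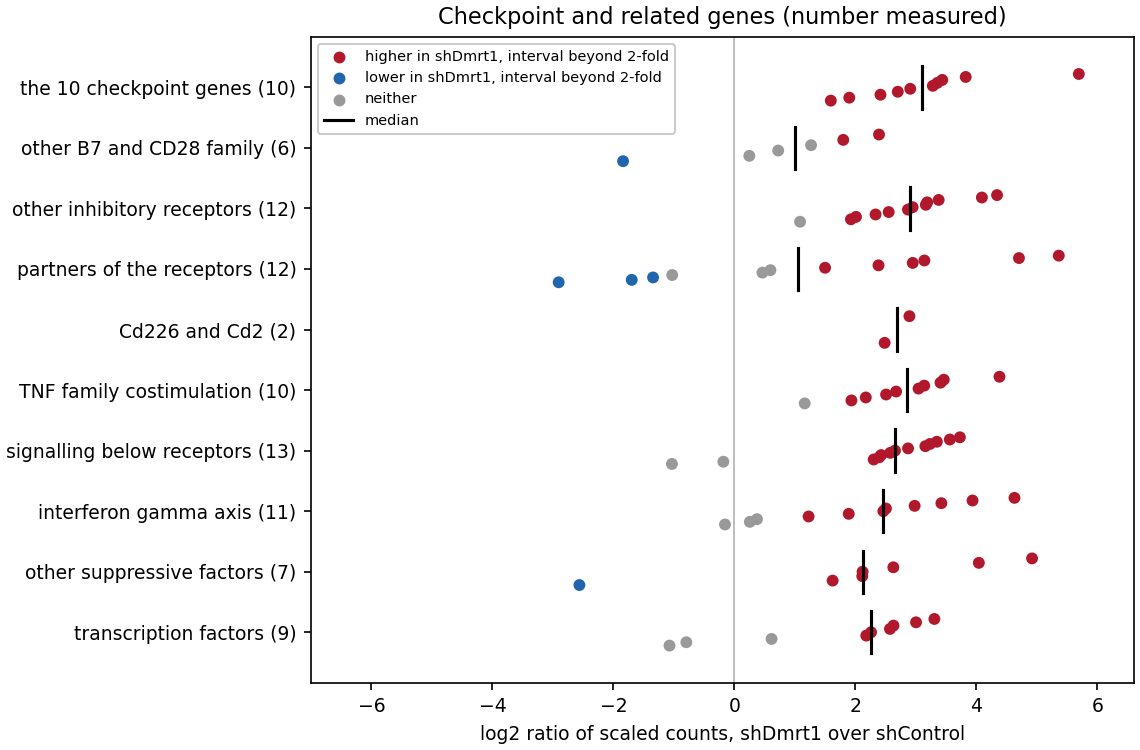
Log2 ratio, knockdown (shDmrt1) over control (shControl), of the 10 genes and of the measured genes of 9 pathway lists. Each point is 1 gene, red or blue where its whole counting interval lay above or below 2-fold and grey otherwise, with black bars for medians. The 10 genes have a median of 3.09 and the remaining B7 and CD28 family one of 0.99.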

How the data were processed

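RNA of 2 testis libraries was analysed from 1 deposited table. Per the file headers, its deposited columns hold read counts and FPKM values for each locus, and EBSeq calls with an FDR threshold of 0.01 and a fold threshold of 2. Per the submitters' processing notes, the tools included STAR 2.5.3a, Trimmomatic 0.36, Subread 1.5.1 with featureCounts, DESeq and edgeR 3.12.1, on mm10. Annotation and counted strand were not given in these sources. In GENCODE M21, 4 of the genes (Cd274, Pdcd1lg2, Ctla4 and Icos) overlap another gene, so their reads cannot be told from those of the other gene.

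Counts were scaled with TMM (edgeR 4.0.16, R 4.3.3), with factors of 0.858 for the knockdown and 1.17 for the control library and a prior count of 0.5. The within-library quotients are scale-free, with exact conditional intervals (scipy 1.17.1). Reads carry no molecular identifiers, so intervals cover counting error only. The procedure was run on simulated counts with Poisson error only, as its intervals assume, so this run does not bear on spread between animals. The genes, lists and comparisons were chosen with earlier results of these data known. Named list genes are up to 4 per list whose interval bound lay farthest from 0, and every other gene of these lists, and every neighbouring gene, was named after its value was seen. Of the marker genes, Trac, Trbc1, Trbc2, Klrb1c, Lyz2 and Clec9a were not analysed here. No likeness between genes was computed over 2 libraries. Alternatives were size factors of DESeq2 1.42.0, library totals, a prior of 5, other filters and call rules, other denominators, and FPKM with a pseudocount of 0.1.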

Additional observations from a re-analysis of the deposited data

How the results depend on the processing

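No paired analysis was possible because only 1 library was made of each kind, which also means that leaving one out gives no value. Under DESeq2 size factors and a prior count of 5, the ratios of the 10 genes stayed inside their counting intervals. Library totals moved 9 of them beyond it, with the same direction, to log2 ratios of 1.15 for Pdcd1, 5.25 for Cd274, 3.38 for Ctla4, 2.99 for Lag3, 2.84 for Havcr2, 2.26 for Tigit, 1.97 for Cd80, 2.46 for Cd86 and 2.91 for Icos. FPKM moved Cd86 alone, to 2.53. The rule of 1.5-fold with an interval excluding 1 counted 4484 of all genes as higher and 4902 as lower, against 2685 and 3142. Called genes were higher in 46.1% of cases with TMM and in 31.4% with library totals. Quotients against myeloid markers depended on the denominator. With Csf1r alone they were 6.50 for Cd274, 0.47 for Pdcd1lg2, 0.67 for Cd80, 0.94 for Cd86 and 1.22 for Havcr2. With all 13 markers they were 7.25, 0.53, 0.75, 1.05 and 1.37 in the same order of genes. By FPKM they were 2.37 for Cd274, 0.27 for Cd86 and 0.40 for Havcr2, and the Cd80 to Cd86 quotient was 0.99. Library totals lowered the log2 ratio of all genes by a median of 0.44. Csf1r alone was 7.97-fold higher, against 16.2-fold for the 5 summed markers. Why the markers differed in ratio, and FPKM from counts, was not tested.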

Other observations

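Within 200 kb of Cd274, 3 of 5 measured protein-coding genes were higher in the knockdown library and 2 neither, beside 17.8% higher over all measured genes. One of the 3 is Pdcd1lg2, itself among the 10 genes. Plgrkt, which lies 0.065 kb from Cd274 on chromosome 19, had 1965 counts in the knockdown library and 664 in the control, a log2 ratio of 1.54 (1.42 to 1.67). Jak2, 54.4 kb away, encodes a kinase of the interferon gamma receptor and had a log2 ratio of 1.89 (1.81 to 1.97), against 5.69 for Cd274. Insl6 and Ric1, in the same window, had log2 ratios of 0.61 and 0.50 and were neither higher nor lower by the 2-fold rule.

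Near Lag3 on chromosome 6, 8 of 23 measured protein-coding genes within 200 kb were higher, 2 lower and 13 neither. Over all measured genes 17.8% were higher and 20.8% lower, which is also the background for the other loci below. With so few neighbours per locus, these counts are descriptions only. The T cell coreceptor gene Cd4, 16.1 kb from Lag3, had a log2 ratio of 2.00, against 3.43 for Lag3. Eno2, an enolase gene 134.7 kb from Lag3 and named after its value was seen, had 2975 counts in the knockdown library and 49 in the control, a log2 ratio of 5.89. Around Tigit on chromosome 16, both measured neighbours, Zbtb20 and Qtrt2, had negative log2 ratios of -0.59 and -0.47. Of the neighbours of Cd80, 1 of 8 was higher, and the 1 measured neighbour of Pdcd1 was neither. Higher genes numbered 3 of 5 near Cd86 and 2 of 5 near Havcr2, and both near Ctla4 (Cd28 and Icos) were higher.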
